A study of Mus musculus with 8 samples.

Results

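The tumour necrosis factor (TNF) superfamily was examined in epididymal fat, the visceral fat pad of male mice, through the probe sets whose single gene symbol began with Tnfrsf (receptors) or Tnfsf (ligands). This rule took 46 of the 45101 probe sets of the array. They stand for 27 of the 18193 genes with a symbol of their own on the array: 19 receptors with 31 probe sets, 7 ligands with 13, and Tnfsf13os, an RNA from the strand opposite Tnfsf13, with 2. Of the 27 genes, 14 were bright enough to be tested among 11232 genes in all, namely 12 receptors and 2 ligands. Tnf, Lta, Ltb, Fas, Cd40, Ltbr and other members of the superfamily with older names carry other symbols and were followed as a separate list.

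The 8 mice were C57BL/6J males bought at 6 weeks of age, with 1 array each and 2 mice in each of 4 groups. The chow group ate food with 10% of calories from fat, and the 3 other groups a high-fat diet (HFD) with 30%, in both cases for 24 weeks. For the next 5 weeks 1 HFD group received no drug, 1 telmisartan (HFD+Tel) and 1 candesartan (HFD+Can), each drug at about 3 mg/kg/day in drinking water. Both drugs block the angiotensin II receptor AT1. No group carried an altered gene. The question put by the design is what the diet did to the fat and whether either drug altered it.

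Ligands of this family are mostly trimers anchored in the membrane of the cell that makes them, and proteases release some of them. Their receptors bind them through cysteine-rich repeats. Receptors with a death domain (Tnfrsf1a, Tnfrsf10b, Tnfrsf21, Tnfrsf25) can start cell death. Many receptors of the family, with or without this domain, switch on NF-kappaB through TRAF adaptors. Some members (Tnfrsf11b, Tnfrsf22, Tnfrsf23) are decoys that bind ligand without a signalling tail. In obese fat, TNF made largely by macrophages is known to blunt the response of adipocytes to insulin.

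In HFD fat 4 of the 14 tested genes rose (28.6%), all of them receptors, and none fell, where 5.15% of all 11232 tested genes rose and 2.95% fell. They were Tnfrsf12a (the TWEAK receptor Fn14), Tnfrsf11a (RANK), Tnfrsf1b (TNF receptor 2) and Tnfrsf13b (TACI), each between 2.19- and 2.79-fold. Relative to HFD, neither drug moved any member, or any other of the 11232 tested genes, past the threshold. The start-proximal sequence of the 4 genes is printed because all 4 were called higher in HFD than in chow. Each is the 250 bases before the RefSeq start of the gene in GRCm38.p6, read 5′ to 3′ on the gene's strand, and capitals mark the motif matches found. Tnfrsf12a lies at chr17:23677450-23677699 (minus strand), Tnfrsf11a at chr1:105780473-105780722 (plus strand), Tnfrsf1b at chr4:145246871-145247120 (minus strand) and Tnfrsf13b at chr11:61126505-61126754 (plus strand).
Tnfrsf12a: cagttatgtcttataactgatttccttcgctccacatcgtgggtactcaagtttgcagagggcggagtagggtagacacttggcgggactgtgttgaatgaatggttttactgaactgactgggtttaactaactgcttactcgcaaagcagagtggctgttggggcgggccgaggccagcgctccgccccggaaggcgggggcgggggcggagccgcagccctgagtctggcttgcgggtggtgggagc
Tnfrsf11a: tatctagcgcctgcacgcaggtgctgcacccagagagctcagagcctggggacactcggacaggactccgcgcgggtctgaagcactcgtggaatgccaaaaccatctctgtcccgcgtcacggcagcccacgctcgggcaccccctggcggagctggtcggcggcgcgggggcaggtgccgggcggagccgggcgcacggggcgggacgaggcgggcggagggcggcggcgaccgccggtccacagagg
Tnfrsf1b: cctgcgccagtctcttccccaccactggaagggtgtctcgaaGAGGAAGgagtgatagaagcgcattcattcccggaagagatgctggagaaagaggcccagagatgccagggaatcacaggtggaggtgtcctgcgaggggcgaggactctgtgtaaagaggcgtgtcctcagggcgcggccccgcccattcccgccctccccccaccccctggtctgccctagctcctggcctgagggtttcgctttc
Tnfrsf13b: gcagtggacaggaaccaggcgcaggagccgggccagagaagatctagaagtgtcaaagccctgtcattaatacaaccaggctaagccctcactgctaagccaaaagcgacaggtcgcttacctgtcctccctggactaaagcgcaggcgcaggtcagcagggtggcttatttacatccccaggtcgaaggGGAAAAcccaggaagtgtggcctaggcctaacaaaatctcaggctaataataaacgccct

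The Tnfrsf11a sequence held 73.6% G and C with 31 CpG pairs, that of Tnfrsf12a 58.8% with 15, that of Tnfrsf1b 62.8% with 12 and that of Tnfrsf13b 54.0% with 8. The medians over 32851 RefSeq sequences of this length were 52.4% and 6 CpG pairs. Both strands were searched for the NF-kappaB consensus (in 3.90% of all such sequences), the AP-1 motif TGANTCA (6.75%), the PU.1 core GAGGAAG (10.6%) and the NFAT core GGAAAA (20.4%). Tnfrsf1b had a PU.1 core 208 bases before the start, Tnfrsf13b an NFAT core 60 bases before it, and the Tnfrsf12a and Tnfrsf11a windows matched none of these letters. Of the 21 member genes with a sequence, 4 matched the AP-1 motif, 2 the PU.1 core, 7 the NFAT core and 2, Tnfrsf8 and Tnfrsf9, the NF-kappaB consensus. These counts are of genes, some with more than 1 sequence, and the percentages above are of sequences. Tnfrsf8 and Tnfrsf9 were too dim to be tested. A match describes the letters and is no evidence of binding.

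The deposited signals are linear intensities. Before scaling, the mean signal of an array with the outer 2% trimmed ran from 178 to 265, a ratio of 1.48, so the arrays were set to a common mean. A floor was set at 6.69, the 20th percentile of all signals, and 18.6% to 22.4% of the signals per array fell at or under it. All 8 adipocyte genes on the array were bright enough to be tested, with summed signals of 70755 to 89344. Of the 6 epididymis and testis genes on the array 0 were bright enough to be tested. Only 1 of them, the epididymis marker Lcn5, was at the floor on all arrays. Their summed signal was 148 on chow array 1, 44.6 on chow array 2 and 39.4 to 88.2 on the other arrays. Telmisartan array 1 stood apart from array 2 of its group in several marker sums: 30847 against 43652 for macrophage genes, 1738 against 2908 for B cell genes, 1022 against 2057 for T and NK cell genes and 580 against 2375 for mesothelial genes. The arrays measure RNA of whole tissue, so fewer cells of a type and less RNA per cell cannot be told apart.

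A gene was tested when its mean log2 signal over the 8 arrays reached the median of all probe sets, and the probe set with the highest mean stood for the gene. Differences are log2 differences of group means of scaled signal, with 95% confidence intervals (CI) from limma. A call means a Benjamini-Hochberg adjusted p under 0.05 over the 11232 genes. Called higher in HFD than in chow were 5.15% of all genes, called lower 2.95%, and 8.09% in either direction. Against that background stood 4 of 14 members (28.6%) called higher and 0 called lower. The median log2 difference was 0.48 over the members tested and -0.013 over all genes, and 12 members lay above 0 and 2 below. The 2 HFD arrays both lay above both chow arrays for 10 of the 14 members, against 27.8% of all genes, and both below for 1, against 30.3%. At an unadjusted p under 0.05 stood 6 members, against 24.1% of all genes.

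**Figure D1:**
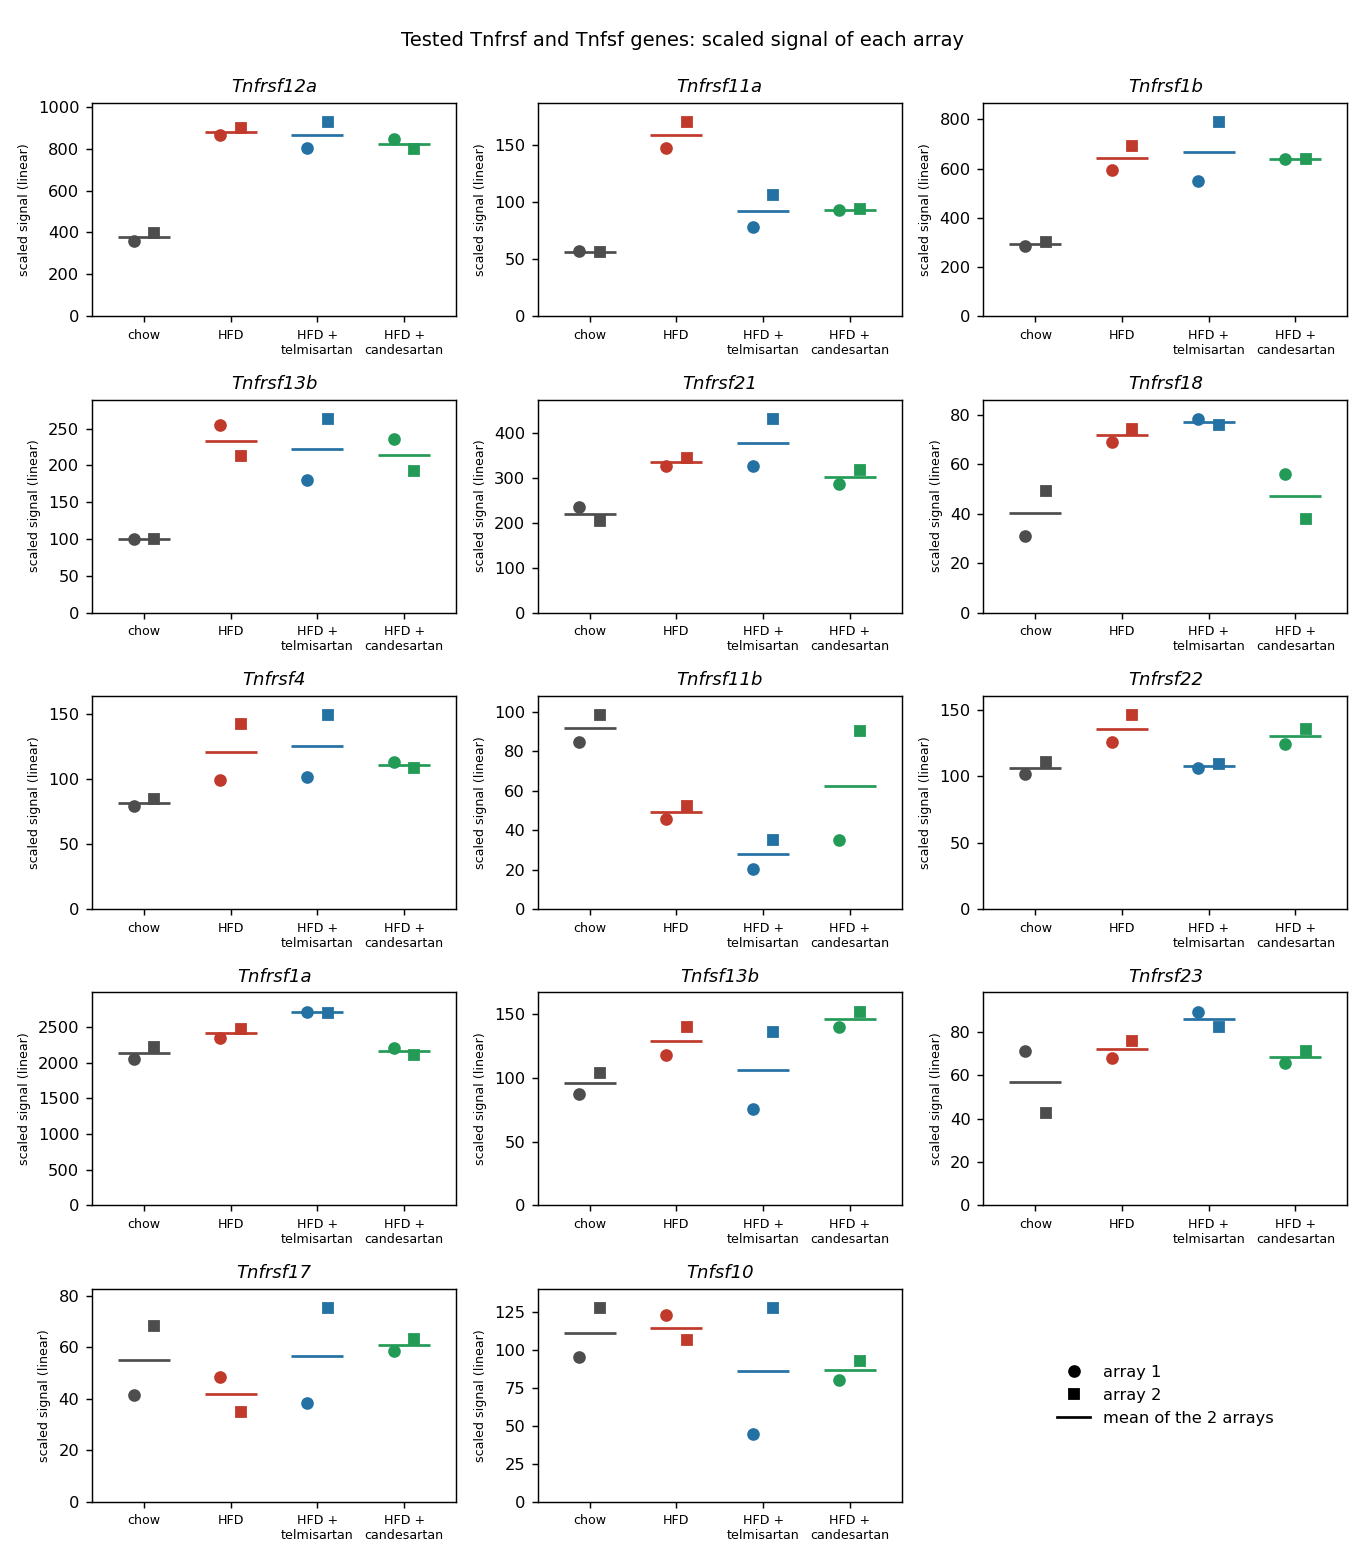
Scaled signal (linear axis from 0) of the 14 tested Tnfrsf and Tnfsf genes on each of the 8 arrays, ordered by the p of HFD against chow; circles are array 1, squares array 2 and lines the mean of the 2 arrays of a group. For Tnfrsf12a, Tnfrsf11a, Tnfrsf1b and Tnfrsf13b all 6 arrays of HFD-fed mice lie above both chow arrays.

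Tnfrsf12a encodes Fn14, the receptor of the ligand TWEAK, which injured and remodelling tissues are known to induce. Tnfrsf12a read 358 and 395 in chow, 864 and 899 in HFD, 805 and 925 in HFD+Tel, and 847 and 799 in HFD+Can. All HFD-fed mice lay above both chow mice. The telmisartan arrays spanned the HFD arrays, and the candesartan arrays lay just below them. The mean rose from 376 ± 26.4 to 882 ± 24.8 (SD, n = 2 each), a log2 difference of 1.23 (CI 0.92 to 1.54, adjusted p = 0.00175, limma). The call held under every alternative run, with adjusted p between 0.000563 and 0.0339. The other probe set of the gene read 372 and 368 in chow, 894 and 841 in HFD, 744 and 928 in HFD+Tel, and 592 and 621 in HFD+Can.

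The ligand TWEAK is encoded by Tnfsf12, whose probe sets are shared in the annotation with Tnfsf13 or the read-through gene Tnfsfm13 and so are no members. The probe set shared by all 3 genes read 276 and 329 in chow, 451 and 480 in HFD, 440 and 471 in HFD+Tel, and 365 and 521 in HFD+Can. Both HFD arrays lay above both chow arrays. The probe set shared by Tnfsf12 and Tnfsfm13 read 322 and 355 in chow, 389 and 508 in HFD, 393 and 410 in HFD+Tel, and 368 and 429 in HFD+Can. It showed the same order of chow and HFD. Neither was tested, because their signal cannot be given to 1 gene.

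Of the receptors of TNF itself, Tnfrsf1b was called and Tnfrsf1a was not. Tnfrsf1b, TNF receptor 2, is found mainly on leukocytes and endothelial cells and has no death domain. It read 284 and 303 in chow, 594 and 692 in HFD, 549 and 787 in HFD+Tel, and 639 and 639 in HFD+Can. All 6 arrays of HFD-fed mice lay above both chow arrays. The log2 difference of HFD from chow was 1.13 (CI 0.71 to 1.55, adjusted p = 0.00973, limma). Without HFD array 1 the adjusted p was 0.0595 and without HFD array 2 it was 0.108. The other probe set read 110 and 132 in chow, 236 and 236 in HFD, 192 and 219 in HFD+Tel, and 207 and 176 in HFD+Can. Its HFD difference was 0.97, and in it all drug arrays lay below both HFD arrays and above both chow arrays.

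Tnfrsf1a, TNF receptor 1, carries the death domain and is made by most cell types. It read 2043 and 2212 in chow, 2349 and 2476 in HFD, 2712 and 2698 in HFD+Tel, and 2205 and 2106 in HFD+Can. Both HFD arrays were above both chow arrays, by a small step: the log2 difference was 0.18 (CI -0.07 to 0.43, adjusted p = 0.354), which did not pass. Whether the diet's effect on Tnfrsf1a and Tnfrsf1b differs was not tested.

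Other death-domain receptors were measured as well. Tnfrsf21, death receptor 6, read 235 and 203 in chow, 326 and 344 in HFD, 326 and 432 in HFD+Tel, and 287 and 318 in HFD+Can. The HFD groups all lay above chow, yet the HFD difference of 0.61 (CI 0.21 to 1.02) had an adjusted p of 0.0715. It passed when either telmisartan array was left out (adjusted p = 0.0253 and 0.0252). Tnfrsf10b, the mouse receptor of TRAIL, was too dim to be tested, with readings of 13.0 to 41.1 over its 2 probe sets. HFD lay above chow in the first of them and below it in the other. Tnfrsf25, death receptor 3, lay just under the filter and read 25.8 and 41.8 in chow, 29.6 and 59.9 in HFD, 26.5 and 55.9 in HFD+Tel, and 48.2 and 38.9 in HFD+Can, so that its groups overlapped.

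RANK, encoded by Tnfrsf11a, is the receptor through which RANKL turns macrophage-lineage cells into osteoclasts, and osteoprotegerin (Tnfrsf11b) is the soluble decoy that binds RANKL (Tnfsf11) first. Tnfrsf11a read 56.8 and 56.5 in chow, 147 and 170 in HFD, 78.2 and 107 in HFD+Tel, and 92.7 and 94.4 in HFD+Can. Here the drug groups lay between chow and HFD without touching either. From 56.7 ± 0.21 in chow the mean rose to 159 ± 15.9 in HFD (SD, n = 2 each), a log2 difference of 1.48 (CI 0.97 to 2.00, adjusted p = 0.00709, limma). The adjusted p was 0.0562 without HFD array 1 and 0.0896 without HFD array 2. The second probe set read 23.1 and 28.8 in chow, 58.8 and 46.0 in HFD, 69.9 and 57.1 in HFD+Tel, and 29.6 and 74.4 in HFD+Can. Its HFD difference of 1.01 had the same direction and an adjusted p of 0.229, and both of its drug groups overlapped HFD.

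Tnfrsf11b went the other way without passing. It read 85.0 and 98.4 in chow, 45.5 and 52.5 in HFD, 20.3 and 35.2 in HFD+Tel, and 35.1 and 90.2 in HFD+Can. Of the 14 tested members it was the only gene whose HFD arrays both lay below both chow arrays, and its log2 difference was -0.90 (CI -1.97 to 0.16, adjusted p = 0.283). The candesartan arrays were split, array 2 among the chow values and array 1 below both HFD values. In its second probe set chow read 42.9 and 52.8, HFD 32.5 and 35.8, HFD+Tel 16.1 and 27.2, and HFD+Can 23.0 and 34.5, again with chow above every HFD and telmisartan array. RANKL was barely measurable: its 2 probe sets read between 0.912 and 6.97, and 1 reading of 16, on telmisartan array 2, exceeded the floor.

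**Figure D2:**
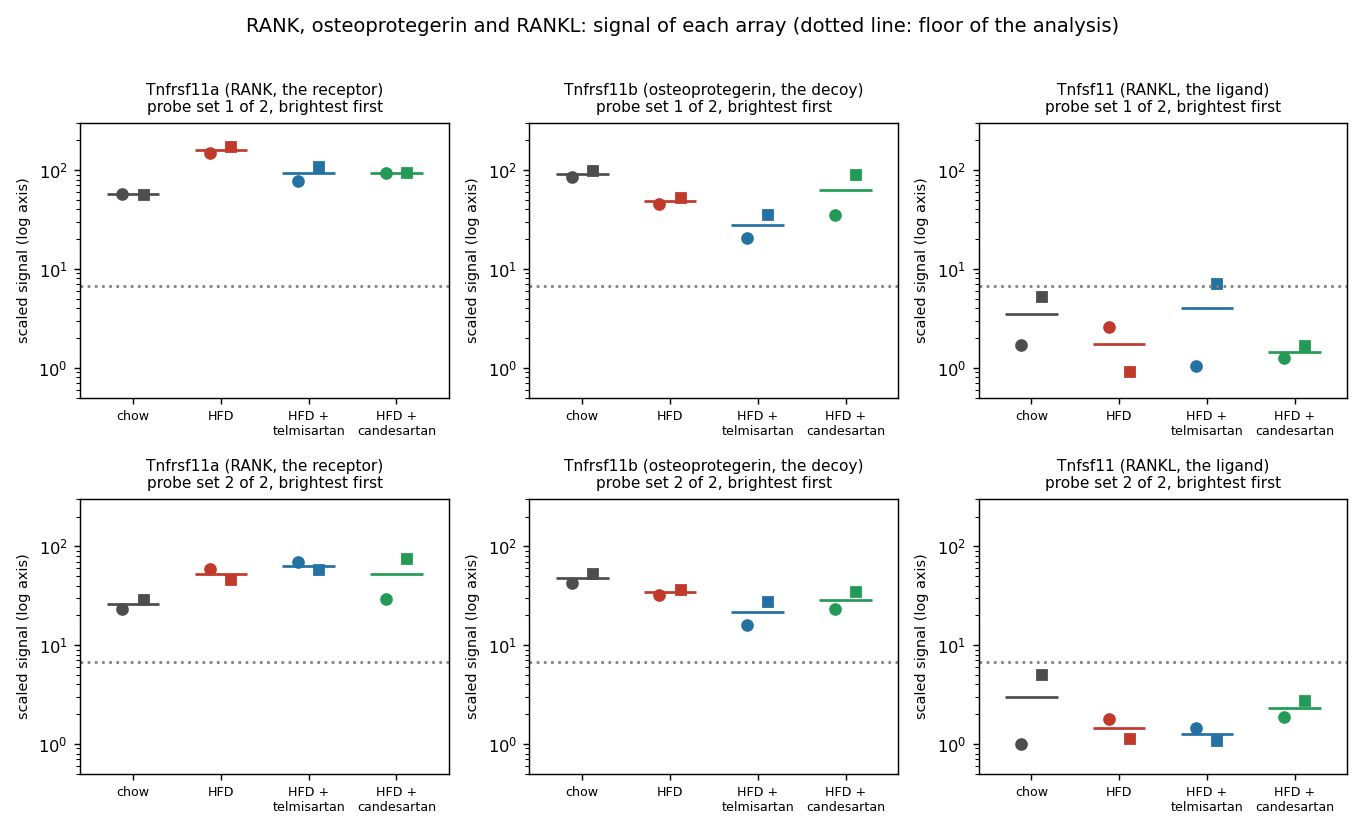
Scaled signal (log axis) of both probe sets of Tnfrsf11a, Tnfrsf11b and Tnfsf11 on each array, before the floor (dotted line, 6.69) was applied; circles are array 1, squares array 2 and lines the arithmetic mean of the group. Tnfrsf11a is higher and Tnfrsf11b lower in HFD than in chow in both probe sets, and Tnfsf11 lies under the floor on all arrays but 1.

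Genes that RANK is known to switch on in osteoclasts were taken as a list of 12, of which 8 were tested. Called higher in HFD were 4 and lower 0, with a median of 0.99. Atp6v0d2, a subunit of the proton pump, rose by 5.44 (adjusted p = 0.000520), Ctsk, the protease cathepsin K, by 2.58 (adjusted p = 0.000883) and Dcstamp, needed for fusion of precursors, by 2.91 (adjusted p = 0.00481). Tcirg1, another pump subunit, rose by 1.54 (adjusted p = 0.0123). The Dcstamp call was lost without HFD array 2, and that of Tcirg1 without chow array 2 or either HFD array. The tested genes of the list that did not pass were Clcn7 at 0.44 (adjusted p = 0.234), Mmp9 at -1.61 (adjusted p = 0.0780), Acp5 at -0.41 (adjusted p = 0.168) and Nfatc1, the master transcription factor of osteoclasts, at -0.043. Macrophages express several of these genes too.

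The BAFF and APRIL system, which keeps B cells and plasma cells alive, has Tnfsf13b (BAFF) as ligand and TACI (Tnfrsf13b), the BAFF receptor (Tnfrsf13c) and BCMA (Tnfrsf17) as receptors. TACI read 99.6 and 100.4 in chow, 255 and 212 in HFD, 181 and 263 in HFD+Tel, and 235 and 192 in HFD+Can. Every HFD-fed mouse exceeded both chow mice, and the 3 HFD groups overlapped. The log2 difference of HFD from chow was 1.22 (CI 0.72 to 1.72, adjusted p = 0.0143, limma). It was lost without chow array 1 (adjusted p = 0.0562), HFD array 1 (0.131) or HFD array 2 (0.0748).

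The other members of this system showed no call. BCMA, the receptor of plasma cells, read 41.5 and 68.2 in chow, 48.5 and 35.0 in HFD, 38.2 and 75.2 in HFD+Tel, and 58.6 and 63.3 in HFD+Can, with overlapping groups and a difference of -0.37 (CI -1.30 to 0.56, adjusted p = 0.632). BAFF read 87.7 and 104 in chow, 118 and 140 in HFD, 75.8 and 136 in HFD+Tel, and 140 and 152 in HFD+Can. Its HFD difference was 0.43 (CI -0.21 to 1.08, adjusted p = 0.397). The BAFF receptor, carried by mature B cells, was under the filter at 30.5 and 36.2 in chow, 38.7 and 43.8 in HFD, 27.7 and 24.5 in HFD+Tel, and 41.2 and 21.0 in HFD+Can. For both BAFF and its receptor the HFD arrays lay above the chow arrays, and the CI of the difference included 0 (for the receptor 0.31, CI -0.63 to 1.24, in a fit without the filter). APRIL (Tnfsf13) is measured only by the shared probe set given above.

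B cell markers were higher in HFD as well. Of 8 B cell genes 7 were on the array and 6 were tested, 2 of them were called higher in HFD (Blnk by 2.61, adjusted p = 0.000755, and Cd22 by 2.69, adjusted p = 0.0106), and the median was 1.66. The tested genes not called were Cd79a at 1.74 (adjusted p = 0.155, limma), Cd79b at 1.42 (0.101), Ms4a1 at 1.59 (0.106) and Blk at 0.85 (0.199). The summed signal of the 7 genes was 521 to 596 in chow, 2718 to 2725 in HFD, 1738 and 2908 in HFD+Tel, and 2604 and 2775 in HFD+Can, and no gene of the list was at the floor on all arrays. Much of this sum was Blnk, with means of 297 in chow and 1824 in HFD. The sum and TACI were also set side by side within groups. The 2 TACI readings of chow and the 2 sums of HFD were level. In HFD+Tel the array with the higher TACI reading had the higher sum, and in HFD+Can the lower sum. The Cd22 call was lost without chow array 1 or either HFD array. Of the 6 plasma cell genes tested, Sdc1 (0.88, adjusted p = 0.0285) was called higher, a call lost without the same arrays, with the other probe set or with median centring. Not called were Mzb1 at 2.30 (adjusted p = 0.143, limma), Jchain at 1.87 (0.147), Prdm1 at 0.89 (0.214), Irf4 at 0.43 (0.497) and Xbp1 at -0.17 (0.400). The part of B cell number in the TACI difference was not tested.

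In HFD against chow, macrophage markers were higher, as were the 4 called receptors. Of 12 macrophage genes tested 10 were called higher in HFD, with a median of 1.59, led by Cd68 (2.36, adjusted p = 0.000728), Itgax (3.10, adjusted p = 0.000755), Cd84 (2.94, adjusted p = 0.00106) and Mpeg1 (2.69, adjusted p = 0.00182). Their summed signal was 16044 to 17701 in chow, 36570 to 37913 in HFD, 30847 and 43652 in HFD+Tel, and 33966 and 39522 in HFD+Can. No macrophage marker was at the floor on all arrays. Endothelial markers moved opposite, with 4 of 8 called lower (Tie1 at -0.97, Kdr at -0.72, Esam at -0.60 and Emcn at -0.66) and a median of -0.63. The Tie1 call was lost without either HFD array, that of Kdr without any 1 of the chow, HFD or candesartan arrays, and those of Esam and Emcn with median centring or without any 1 of 5 arrays (adjusted p up to 0.264). Of 8 stromal and progenitor genes 2 were called higher (Lum at 1.21 and Col1a1 at 0.76) and 0 lower, with a median of 0.21. Those not called were Pdgfra at 0.42, Pi16 and Dcn at 0.21, Pdgfrb at 0.10, Dpp4 at -0.039 and Cd34 at -0.62. Of 8 adipocyte genes 2 were called lower (Slc2a4 at -1.70 and Pparg at -0.81) and 0 higher, with a median of -0.27. The rest were Retn at -0.997, Lipe at -0.42, Cidec at -0.11, Adipoq at -0.015, Fabp4 at 0.058 and Lep at 0.27. Of 6 mesothelial genes 0 were called. Col1a1 was not called in 10 of its 19 alternatives, among them median centring and another probe set of the gene, which gave 0.19 (adjusted p = 0.682). Lum was lost without either HFD array, Slc2a4 without HFD array 1, and Pparg without any 1 of the chow or HFD arrays or with median centring. The part of these cell types in the receptor differences was not tested.

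The T cell co-stimulators of the family gave no call. Tnfrsf18 (GITR), borne by regulatory and activated T cells, read 31.1 and 49.1 in chow, 69.1 and 74.3 in HFD, 78.4 and 75.8 in HFD+Tel, and 56.3 and 37.7 in HFD+Can. HFD and telmisartan lay above chow, and candesartan overlapped it. The HFD difference of 0.87 (CI 0.13 to 1.62) had an adjusted p of 0.146. Tnfrsf18 passed the filter through the other groups, since its chow mean lay under it.

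Tnfrsf4 (OX40), the neighbour of Tnfrsf18 in the RefSeq gene order, read 79.2 and 84.1 in chow, 98.7 and 142 in HFD, 101 and 149 in HFD+Tel, and 113 and 109 in HFD+Can. All HFD-fed mice lay above chow, with a difference of 0.54 (CI -0.06 to 1.13, adjusted p = 0.251). Its ligand Tnfsf4 (OX40L), known from antigen-presenting cells, was too dim for the filter. It read 3.26 and 3.48 in chow, under the floor, and 16.1 and 28.9 in HFD, 19.4 and 36.1 in HFD+Tel, and 14.4 and 23.1 in HFD+Can. No HFD-fed mouse was as low as the chow mice. In a fit of all 18193 genes without the filter, where 0.956% were called, the Tnfsf4 difference was 1.69 with chow set to the floor (CI 0.52 to 2.85, unadjusted p = 0.0135, adjusted p = 0.158).

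T and NK cell markers were set beside these receptors. Of 11 such genes 10 were on the array, 6 were tested and 1 was called higher, Il7r at 4.03 (adjusted p = 0.00175), with a median of 0.94. Their summed signal was 337 to 502 in chow, 1599 to 1630 in HFD, 1022 and 2057 in HFD+Tel, and 1666 and 1827 in HFD+Can. In HFD Il7r made up much of this sum, with a mean of 1103 beside 72.4 in chow. Cd3g, part of the T cell receptor complex, read 55.5 and 53.4 in chow and 101 and 87.0 in HFD. Its difference of 0.78 (CI -0.27 to 1.83, adjusted p = 0.343, limma) did not pass. Cd3d at 1.22 (adjusted p = 0.256), Nkg7 at 1.09 (0.117), Klrd1 at 0.59 (0.160) and Cd8a at 0.11 (0.859) were not called either. Foxp3, which defines regulatory T cells, stayed between 10.4 and 21.5 on all arrays. What share T cells have in the Tnfrsf18 and Tnfrsf4 readings was not tested.

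The remaining co-stimulatory pairs were dim. Tnfrsf9 (4-1BB) read 5.84 and 10.8 in chow, 11.5 and 15.2 in HFD, 26.0 and 14.8 in HFD+Tel, and 21.5 and 22.2 in HFD+Can in the highest of its 3 probe sets. Its ligand Tnfsf9 read 16.4 to 35.0 over the 8 arrays with overlapping groups. Tnfrsf8 (CD30) read 1.48 to 29.2 and its ligand Tnfsf8 16.1 to 24.3. Tnfrsf14 (HVEM) was under the floor on all 8 arrays, and its ligand Tnfsf14 (LIGHT) passed the floor on 4 of the 8 arrays in its higher probe set. Tnfrsf19 (TROY) read 0.569 to 23.6 over 3 probe sets, and Tnfsf13os 5.51 to 49.997 over 2. None of these genes was tested, and without the filter none was called in any comparison.

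The mouse TRAIL decoys Tnfrsf22 and Tnfrsf23 are neighbours in the RefSeq gene order. Tnfrsf22 read 102 and 111 in chow, 126 and 146 in HFD, 106 and 110 in HFD+Tel, and 124 and 136 in HFD+Can, with a difference of HFD from chow of 0.35 (CI -0.07 to 0.77, adjusted p = 0.290). Its 3 probe sets disagreed, with differences of 0.35, 0.14 and -0.29. Tnfrsf23 read 71.4 and 42.6 in chow, 68.0 and 76.1 in HFD, 89.4 and 82.4 in HFD+Tel, and 65.9 and 71.1 in HFD+Can (0.38, CI -0.28 to 1.05, adjusted p = 0.467). Near copies such as this pair can share signal.

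TRAIL itself, Tnfsf10, is a death ligand of immune cells and endothelium. It read 94.9 and 127 in chow, 123 and 106 in HFD, 44.8 and 127 in HFD+Tel, and 80.3 and 92.7 in HFD+Can, a difference of 0.05 (CI -0.92 to 1.03, adjusted p = 0.955). The groups overlapped. Its other probe sets pointed down, by -0.64 (91.8 and 90.8 in chow against 59.1 and 57.9 in HFD) and -0.43 (42.3 and 64.5 against 35.7 and 42.4), and the sign for the tested probe set also turned under quantile normalization (-0.022) and median centring (-0.047). No direction is therefore given for Tnfsf10. Of the 8 tested members with more than 1 probe set off the floor, 6 had the same sign in all of them and 2, Tnfrsf22 and Tnfsf10, did not.

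Among the superfamily members with other symbols is Tnf, the cytokine that gave the family its name. Tnf read 4.87 and 7.35 in chow, 48.6 and 41.5 in HFD, 25.5 and 23.4 in HFD+Tel, and 16.6 and 46.5 in HFD+Can. All HFD-fed mice lay above chow, but its mean was under the filter. In the fit without the filter the difference of HFD from chow was 2.68 with chow array 1 set to the floor, so that its size depends on the floor (CI 1.41 to 3.95, unadjusted p = 0.00286, adjusted p = 0.0864). Ltb, lymphotoxin beta of lymphocytes, read 75.2 and 88.1 in chow, 151 and 175 in HFD, 114 and 301 in HFD+Tel, and 237 and 80.4 in HFD+Can (0.995, CI -0.23 to 2.22, adjusted p = 0.301). Lta read 1.56 to 12.8 and was not tested.

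**Figure D3:**
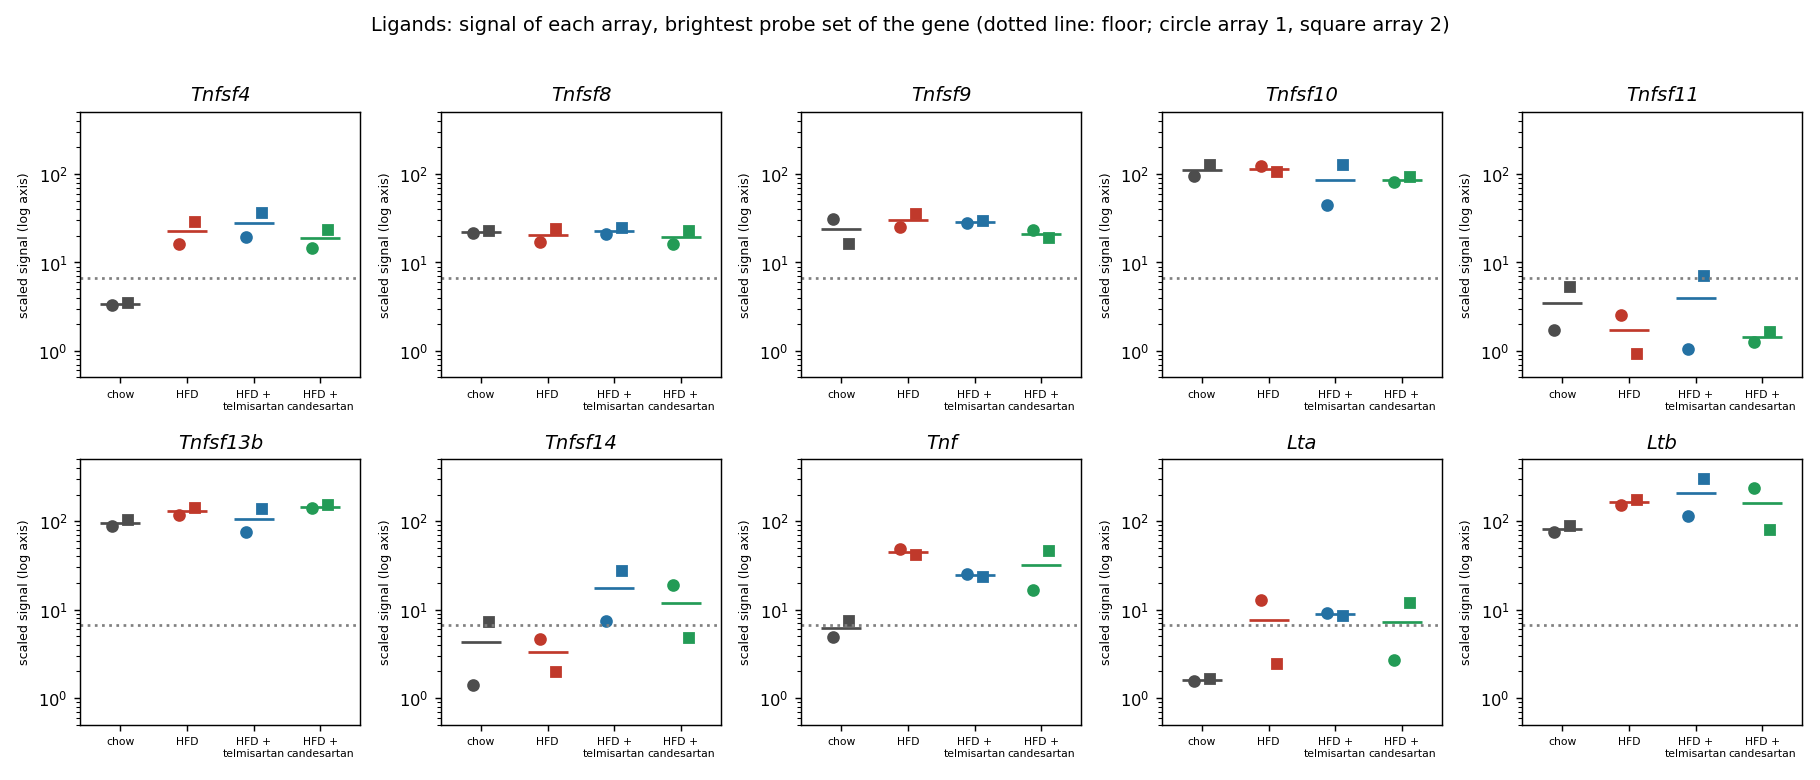
Scaled signal (log axis) of 7 Tnfsf ligands and of Tnf, Lta and Ltb on each array, in the probe set of each gene with the highest mean, before the floor (dotted line, 6.69) was applied; circles are array 1, squares array 2, lines the arithmetic mean. Tnfsf4 and Tnf are higher in all HFD-fed mice than in both chow mice, and Tnfsf11 lies under the floor on all arrays but telmisartan array 2.

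Of the 8 receptors with other symbols 4 were tested and 0 called, with a median of -0.084. Cd40, the co-stimulatory receptor of antigen-presenting cells, differed by 0.48 (adjusted p = 0.404), the death receptor Fas by -0.27 (adjusted p = 0.669; 0.19 without HFD array 2) and Ltbr, the lymphotoxin beta receptor, by -0.13 (adjusted p = 0.608). Of the 7 ligands with other symbols 6 were on the array, 2 were tested (Ltb and Eda) and 0 called.

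Downstream of the receptors, none of 15 tested TRAF and death-domain adaptors was called in HFD against chow, and the median was 0.13. At an unadjusted p under 0.05 stood 1 of them, Birc3, an inhibitor of apoptosis that binds TRAF2, at 0.58 (adjusted p = 0.0760). Of 14 tested NF-kappaB genes 2 were called higher and 0 lower, with a median of 0.28. These were Tnfaip3, the feedback inhibitor A20, with 179 and 209 in chow and 313 and 355 in HFD (0.78, adjusted p = 0.0431), and its partner Tnip1, with 659 and 662 in chow and 989 and 1065 in HFD (0.64, adjusted p = 0.0438). Of 6 genes of ectodomain shedding, Adam17, the protease that releases TNF and clips TNF receptors, was called higher, from 374 and 368 in chow to 701 and 764 in HFD (0.98, adjusted p = 0.0491). The calls of Tnfaip3, Tnip1 and Adam17 were each lost without any 1 of the chow, HFD or candesartan arrays. Each was also lost without the variance trend and without the filter. Those of Tnfaip3 and Tnip1 were lost with median centring as well (adjusted p = 0.0776 and 0.326, limma). Another probe set of Tnfaip3 did not pass either (adjusted p = 0.204, limma).

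**Figure D4:**
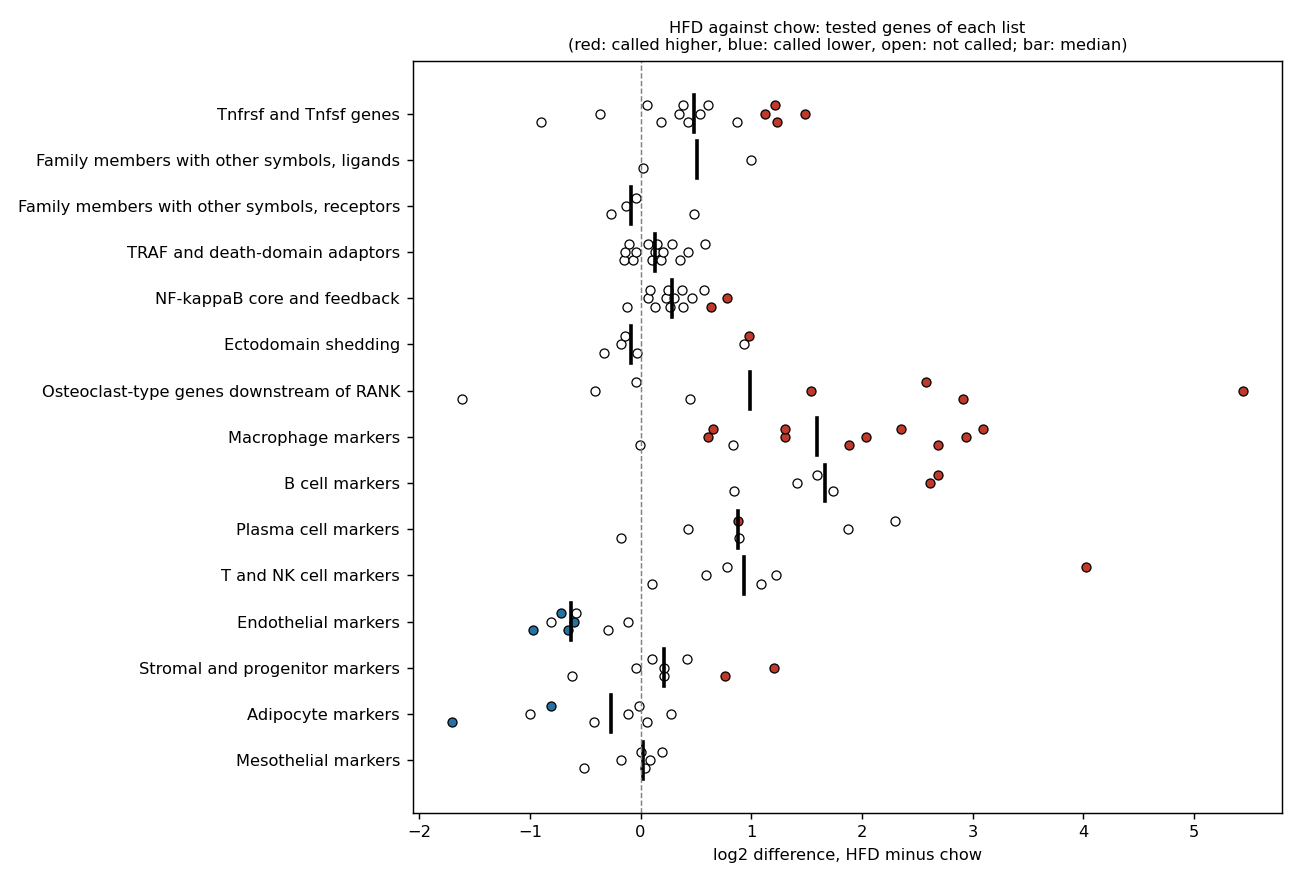
log2 difference of HFD minus chow (x axis) of each tested gene in the Tnfrsf and Tnfsf set and in each marker or pathway list (rows); red points were called higher, blue called lower, open points not called, and bars are medians. The family's median is 0.48, that of macrophage markers 1.59 and that of endothelial markers -0.63.

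The drugs were compared with HFD to see whether they altered the diet pattern. These comparisons share the HFD arrays with that of HFD and chow. For telmisartan 0 of 14 members and 0% of the 11232 genes were called, and at an unadjusted p under 0.05 stood 1 member and 6.2% of all genes. For candesartan the counts were again 0 and 0%, with 1 member and 1.25% of all genes at an unadjusted p under 0.05. The median over the members was 0.0025 for telmisartan and -0.099 for candesartan, beside -0.0078 and 0.0042 over all genes. In telmisartan 3 members lay wholly above and 3 wholly below the HFD arrays (18.5% and 19.5% of all genes). In candesartan 2 lay above and 6 below (17.9% and 15.5%).

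Tnfrsf11a was the member with an unadjusted p under 0.05 in both drug comparisons. It differed from HFD by -0.79 with telmisartan (CI -1.31 to -0.28, unadjusted p = 0.00716, adjusted p = 0.766) and by -0.76 with candesartan (CI -1.27 to -0.24, unadjusted p = 0.00903, adjusted p = 0.99999). Its second probe set gave 0.28 and -0.15. Next by p for telmisartan were Tnfrsf11b at -0.87 (CI -1.94 to 0.20, adjusted p = 0.766) and Tnfrsf22 at -0.33 (CI -0.75 to 0.09, adjusted p = 0.766), whose second probe set gave 0.31. For candesartan they were Tnfrsf18 at -0.64 (CI -1.38 to 0.11, adjusted p = 0.99999) and Tnfrsf1a at -0.16 (CI -0.41 to 0.09, adjusted p = 0.99999). None of these passed.

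The other receptors called with the diet were not called in either drug comparison, and their probe sets did not all read alike. Tnfrsf12a differed from HFD by -0.030 with telmisartan (CI -0.34 to 0.28) and by -0.099 with candesartan (CI -0.41 to 0.21). Its other probe set gave -0.061 and -0.52, the latter with an unadjusted p of 0.00582 and an adjusted p of 0.882 in a fit of all probe sets without the filter. Tnfrsf1b differed by 0.035 (CI -0.39 to 0.46) and -0.0051 (CI -0.43 to 0.42). Its other probe set gave -0.20 and -0.30 in the same fit of all probe sets, with unadjusted p of 0.205 and 0.0818. Tnfrsf13b differed by -0.093 (CI -0.59 to 0.41) and -0.13 (CI -0.63 to 0.37). Changes within these intervals cannot be seen with 2 arrays a group, and the adjusted p values do not show that the drugs left the genes as they were.

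**Figure D5:**
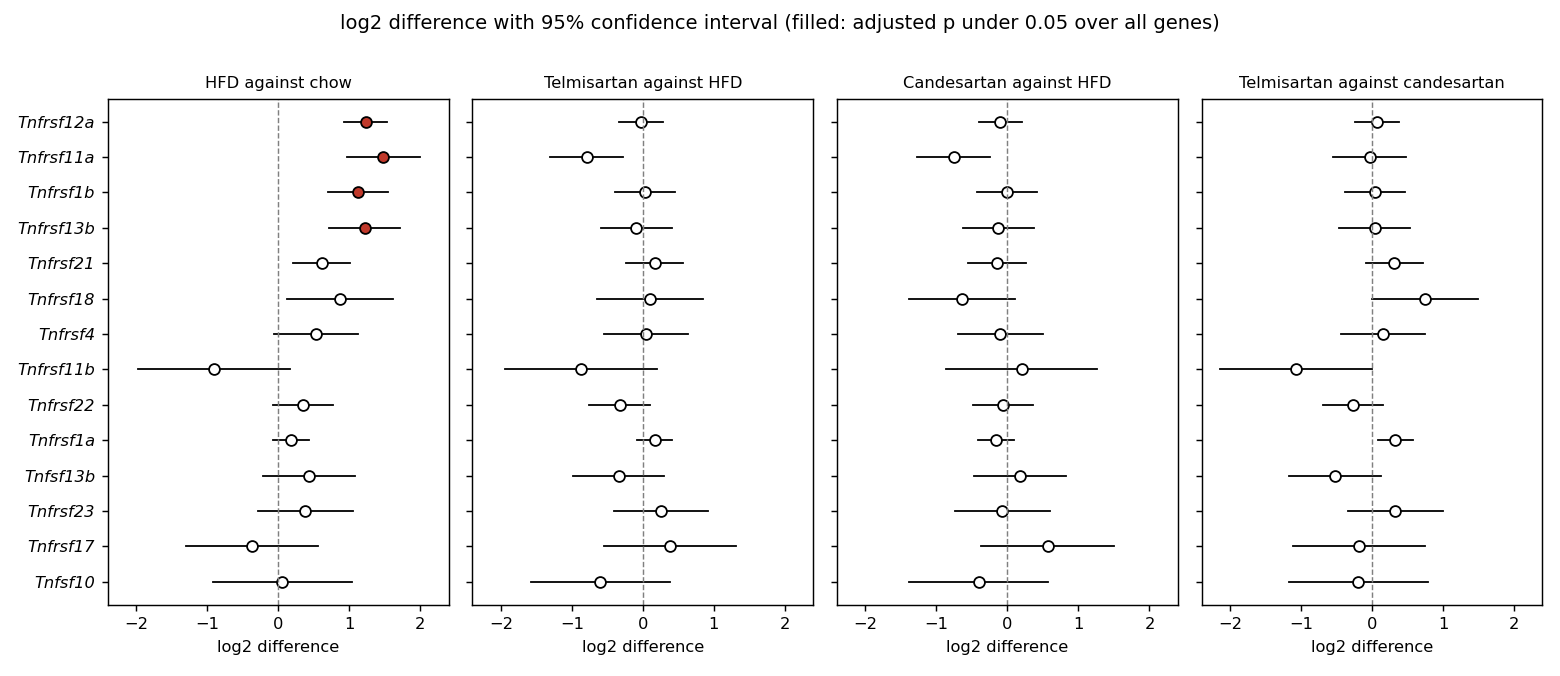
log2 difference (x axis) with 95% confidence interval of the 14 tested members in HFD against chow, each drug against HFD, and telmisartan against candesartan; filled points have an adjusted p under 0.05 over all genes. The 4 filled points all lie in HFD against chow, and the Tnfrsf11a interval excludes 0 with the opposite sign in both drug comparisons (its second probe set gave 0.28 and -0.15).

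Telmisartan and candesartan are structurally related AT1 blockers given here at the same dose for the same time, and their direct comparison asks whether they differ. Of 14 members 0 were called, as were 0% of all genes, and 2 members and 4.9% of all genes had an unadjusted p under 0.05. The member median was 0.038, beside -0.0061 over all genes. Tnfrsf1a was 0.33 higher with telmisartan (CI 0.08 to 0.58, unadjusted p = 0.0158, adjusted p = 0.924), with no overlap of the arrays. Tnfrsf11b differed by -1.07 (CI -2.14 to -0.01, unadjusted p = 0.0490, adjusted p = 0.924), with arrays that overlapped at 35.2 and 35.1. Tnfrsf18 was 0.74 higher (CI -0.0048 to 1.49, unadjusted p = 0.0512, adjusted p = 0.924), also without overlap. For the 4 receptors called with the diet the difference between the drugs was 0.069 (CI -0.24 to 0.38) for Tnfrsf12a, -0.034 (CI -0.55 to 0.48) for Tnfrsf11a, 0.041 (CI -0.38 to 0.46) for Tnfrsf1b and 0.036 (CI -0.46 to 0.54) for Tnfrsf13b. In the other probe set of Tnfrsf12a telmisartan was 0.46 above candesartan without overlap (unadjusted p = 0.00974, adjusted p = 0.636, in the fit of all probe sets).

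Each drug group was also set against chow, with the same chow arrays in all 3 comparisons. With telmisartan 4 members were called higher and 0 lower, against 4.96% and 3.48% of all genes (8.44% in either direction). Both telmisartan arrays lay above both chow arrays for 9 members (22.4% of all genes) and below for 1 (25.2%), and 8 had an unadjusted p under 0.05 (24.7%). The called members were Tnfrsf12a at 1.20 (adjusted p = 0.00214), Tnfrsf1b at 1.16 (adjusted p = 0.00831), Tnfrsf13b at 1.12 (adjusted p = 0.0182) and Tnfrsf21 at 0.78 (adjusted p = 0.0319). The Tnfrsf21 call was lost without any 1 array except telmisartan array 1, with adjusted p up to 0.129, with only the 2 groups compared in the fit (adjusted p = 0.152), and in its second probe set, which gave 0.48 (adjusted p = 0.154). That of Tnfrsf13b was lost without either chow array or telmisartan array 2, and those of Tnfrsf13b and Tnfrsf1b with only the 2 groups compared (adjusted p = 0.0893 and 0.0616). The second probe set of Tnfrsf1b gave 0.77. Tnfrsf11a, at 0.69 (CI 0.17 to 1.20, adjusted p = 0.101), was not called, and neither was Tnfrsf11b, at -1.77 (CI -2.84 to -0.71, adjusted p = 0.0530), whose telmisartan mean lay under the filter. Quantile normalization, median centring and leaving out either candesartan array called Tnfrsf11b lower. Tnfrsf11a was called higher with quantile normalization or without telmisartan array 1, and Tnfsf10 was called without telmisartan array 2.

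With candesartan 3 members were called higher and 0 lower, against 4.48% and 2.11% of all genes (6.59% in either direction). Both candesartan arrays lay above both chow arrays for 8 members (25.8% of all genes) and below for 1 (28%), and 5 had an unadjusted p under 0.05 (21.3%). The called members were Tnfrsf12a at 1.13 (adjusted p = 0.00243), Tnfrsf1b at 1.12 (adjusted p = 0.0107) and Tnfrsf13b at 1.09 (adjusted p = 0.0242). The Tnfrsf1b call was lost without either candesartan array and in its second probe set, which gave 0.67 (adjusted p = 0.0783), and the Tnfrsf13b call without any 1 of the chow, HFD or candesartan arrays. Tnfrsf11a stood at 0.72 (CI 0.21 to 1.24, adjusted p = 0.103) and Tnfrsf21 at 0.47 (CI 0.06 to 0.87, adjusted p = 0.168). The member medians were 0.61 for telmisartan and 0.38 for candesartan, beside -0.030 and -0.018 over all genes. Macrophage markers were called higher in 9 of 12 and 8 of 12 cases in these comparisons, and B cell markers in 2 of 6 in both.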

How the data were processed

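Total RNA of epididymal fat was hybridized to 8 1-colour oligonucleotide arrays, 1 per mouse. The deposited values are linear intensities per probe set. The authors used GeneChip Analysis Suite, per the labels' design text. Its summary algorithm and scaling are unknown here. No scan date or batch is given, and the table held 0 columns of other samples. Signals were set to the same 2% trimmed mean on every array, values under the 20th percentile were set to it, and log2 was taken. Probe sets at or above the 50th percentile of mean log2 signal were kept, then the highest probe set per gene with 1 symbol in the platform annotation. All 27 gene identifiers matched RefSeq, with 0 changed symbols. limma 3.58.1 in R 4.3.3 fitted 4 group means (4 residual degrees of freedom, moderated variances with an intensity trend, two-sided tests), and the script was tested on simulated data. The 2 arrays per group limit the precision: the median interval reached 0.44 to each side, and an exact permutation test could not go below 33.3%. Figures used Python 3.11.15. Groups come from the sample titles.

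The members and lists were chosen with earlier results of these data known. The text names all called members per comparison, or the 3 with the smallest p where fewer than 3 were called. It also names the textbook ligand and receptor pairs and the called genes of other lists up to 4 each. Tnf, Lta, Ltb, Fas, Cd40 and Ltbr are always named. Acp5, Birc3, Clcn7, Cd3g, Foxp3, Mmp9, Nfatc1, Lcn5, Eda, Cd79a, Cd79b, Ms4a1, Blk, Cd3d, Cd8a, Nkg7 and Klrd1 were added after their values were seen. So were the stromal genes Pdgfra, Pi16, Dcn, Pdgfrb, Dpp4 and Cd34 and the adipocyte genes Retn, Lipe, Cidec, Adipoq, Fabp4 and Lep. The plasma cell genes Mzb1, Jchain, Prdm1, Irf4 and Xbp1 were added in the same way. The alternatives were other scaling, floor, filter, probe set, variance and sample settings; a fit of every probe set without the filter was added after seeing the data.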

Additional observations from a re-analysis of the deposited data

How the results depend on the processing

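The count of called members kept to within 1.5 times its value under other scaling, floors, a stricter filter, other variance moderation and the replicate block in all 6 comparisons, and it was 0 in the 3 comparisons without chow under every alternative run. Without the filter, where 18193 genes were tested, 1 member was called in each of HFD, telmisartan and candesartan against chow, Tnfrsf12a each time, beside 0.956%, 1.82% and 0.901% of all genes. With every probe set fitted, the second probe set lost the call of Tnfrsf11a in HFD, of Tnfrsf21 in telmisartan and of Tnfrsf1b in candesartan against chow. With only the 2 groups compared in the fit, 1 member was called in telmisartan against chow. Leaving out 1 array at a time gave 1 to 5 members for HFD against chow, 2 to 5 for telmisartan against chow and 1 to 3 for candesartan against chow; where a group was left with 1 array, that array was assumed to vary like the other groups. Over all genes, HFD against chow gave 909 calls, and 182 and 164 without HFD array 1 or 2, 572 with median centring, 638 without the variance trend, 174 without the filter and 1588 and 1624 without telmisartan array 1 or 2.

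Signs reversed only for genes not called in the comparison concerned, among the genes named. For Tnfsf10 in HFD against chow the values were -0.022 with quantile normalization, -0.047 with median centring, -0.64 with the second probe set, -0.16 without chow array 1 and -0.048 without HFD array 1; leaving out 1 array gave -0.16 to 0.27. Fas gave 0.19 without HFD array 2 (-0.73 to 0.19 over the arrays). In telmisartan against HFD the second probe sets of Tnfrsf11a and Tnfrsf22 gave 0.28 and 0.31. The cause was not tested. Same-numbered arrays correlated in their deviations at -0.041 to 0.206 between groups. No label pairs the mice, and the main fit did not pair them. Whether the array numbers reflect a shared batch was not tested. The replicate block gave 4 members for HFD against chow, 5 for telmisartan against chow and 3 for candesartan against chow, and 1280 genes in all for HFD against chow. No presence calls were used, so how far a dim probe set lies above its background is not known.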
